A study of Mus musculus with 6 samples.

Results

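Procollagen chains are modified, folded, trimmed and crosslinked by dedicated enzymes, and the transcripts of 10 of these proteins are described here: Pcolce, Pcolce2, Bmp1, Lox, Loxl1, Loxl2, Plod1, Plod2, P4ha2 and Serpinh1. They were picked by gene symbol from a table of 24421 symbols, and all 10 were found and passed the filter on low counts that left 11801 tested genes. The set was proposed with the difference between the groups already known. Counts, fold changes and calls of these 10 genes are therefore given as a description, without p-values, and support nothing by themselves.

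RNA was sequenced from C2C12, a mouse myoblast line that fuses into myotubes when serum is reduced. The myoblasts received lentivirus carrying a short hairpin RNA against Gaa, the gene of lysosomal acid alpha-glucosidase (shGAA, n = 3 libraries). Control myoblasts received the virus with a hairpin of scrambled sequence (shScrambled, n = 3). All cells went through puromycin selection and then differentiation in 2% horse serum with 4.5 g/l glucose, and the titles of all 6 samples carry the word Fed, whose meaning the labels leave unsaid. For all 6 samples the labels also give 10% fetal bovine serum. The labels state neither the number of hairpin sequences nor whether the libraries of a group are separate cultures, so SEs and p-values reflect the scatter of these 6 libraries alone, which could be technical.

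Collagen chains enter the endoplasmic reticulum, where prolyl 4-hydroxylases stabilise the triple helix, lysyl hydroxylases prepare lysines for glycosylation and crosslinking, and the chaperone Hsp47 (Serpinh1) holds the folded helix until export. Outside the cell, Bmp1 and its relatives cut off the C-terminal propeptide, helped by the procollagen C-proteinase enhancers Pcolce and Pcolce2. Lysyl oxidases then oxidise lysines and hydroxylysines, and the products form the covalent crosslinks of the fibril. Myoblasts and myotubes in culture make fibrillar collagens as well as the enzymes that act on them.

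Library totals ran from 9224038 to 10430270 counts. Gaa had 445 to 552 counts in the shGAA libraries and 1033 to 1158 in the shScrambled libraries. The library shScrambled 1 stood apart from shScrambled 2 and 3 on the second principal component, which held 12.9% of the variance. Myotube transcripts were present in both groups, and the 10 myotube markers summed to 686 to 737 CPM in shGAA and 1048 to 1301 CPM in shScrambled (CPM, the count divided by the library size after scaling by TMM, edgeR's trimmed mean of M-values, on the usual common scale). Of the 9 tested, 6 were lower and 0 higher by edgeR (adjusted p under 0.05), with a median log2 fold change of -0.71. Among all tested genes 19.7% were lower and 18.5% higher. The part of the myotube markers in the differences below was not tested. Fewer cells of a type and less RNA per cell cannot be told apart in such bulk samples.

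Transcripts of both C-proteinase enhancers and of Lox, the founding lysyl oxidase, were lower with the Gaa hairpin. Bmp1, the proteinase, was slightly higher. Those of the chaperone, the hydroxylases and the other lysyl oxidases of the set lay within 0.17 of 0 on the log2 scale. In the edgeR quasi-likelihood fit over all genes, 3 of the 10 genes were called lower, 1 higher, and 6 were not called (a call is an adjusted p under 0.05). In simulated counts with 200 changed genes, the share of calls on unchanged genes was above that nominal rate. Of all tested genes 38.2% were called, 18.5% as higher and 19.7% as lower, and nothing is read from the set's count beside that. Higher genes made up 48.4% of all calls, and 60.0% under plain library-size scaling. For 6 of the 10 genes the groups did not overlap, against 49.6% of all tested genes. The median log2 fold change was -0.06 over the set and 0.01 over all tested genes. Summed over the 10 genes, the level was 2814 to 2911 CPM in shGAA and 3224 to 3428 CPM in shScrambled.

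**Figure D1:**
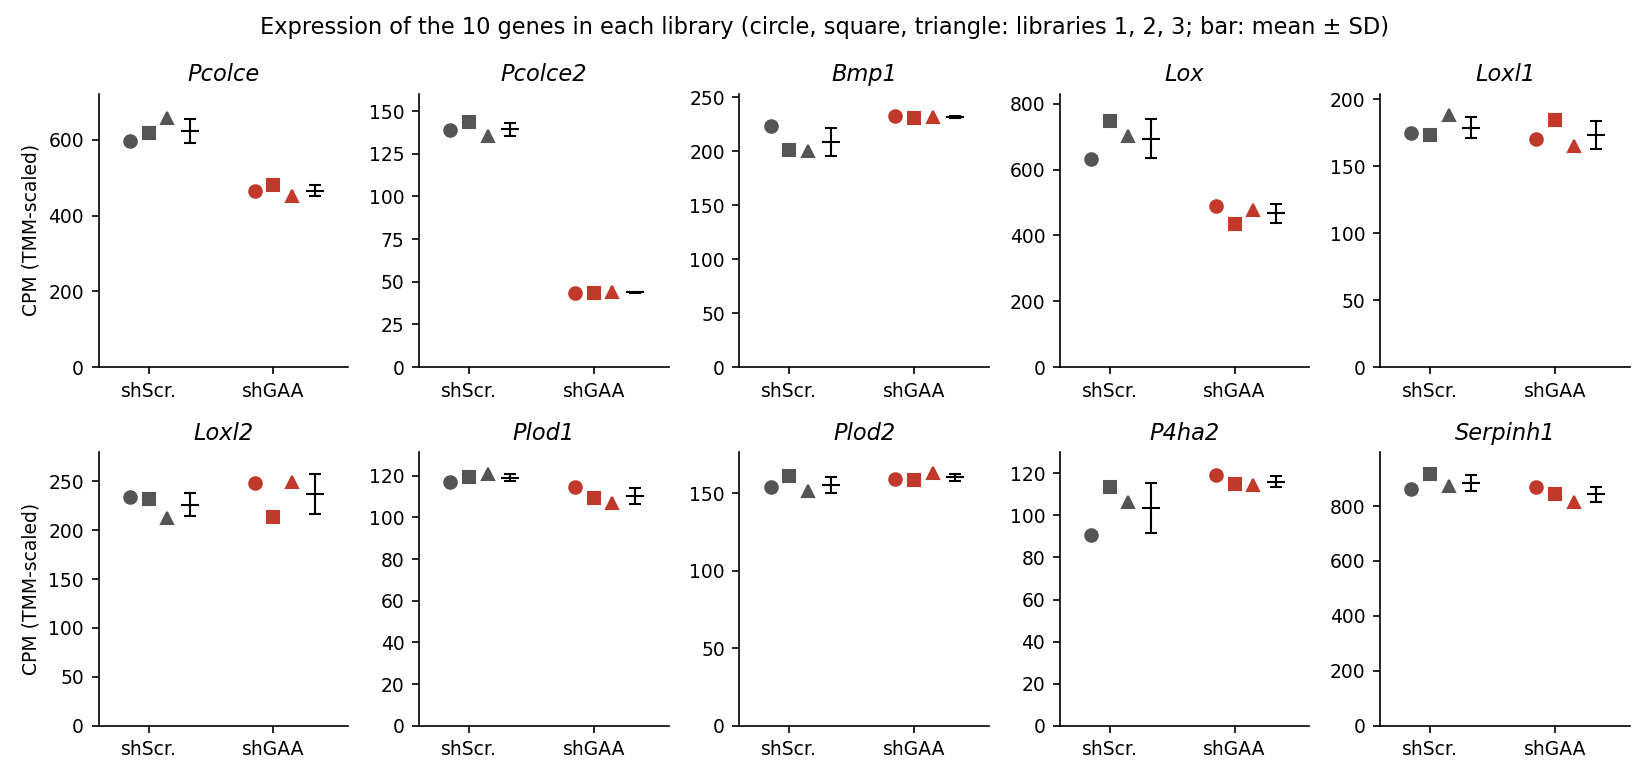
CPM (y axis, from 0) of each of the 10 genes in the 3 shScrambled (grey, "shScr.") and 3 shGAA (red) libraries, with the mean ± SD beside the points. Pcolce, Pcolce2 and Lox show clear gaps between the groups, and Serpinh1, Loxl1, Loxl2 and Plod2 overlap.

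Pcolce2 differed most. The 3 shGAA libraries held 427, 409 and 471 of its reads, and the 3 shScrambled libraries held 1352, 1336 and 1269. Scaled to CPM, these were 43.6, 43.6 and 44.3 against 139, 143 and 135. All 3 shGAA libraries were far below every shScrambled library, and each group was tight. The means were 43.8 ± 0.368 and 139 ± 4.02 CPM (SD, n = 3 each), and the log2 fold change was -1.67 ± 0.06 (SE), which leaves 31.5% of the control level. The protein, like its relative Pcolce, binds the C-propeptide of procollagen and speeds its removal.

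Pcolce, the more abundant enhancer, fell less. It was at 465, 479.6 and 452 CPM in shGAA 1 to 3 and at 596, 617 and 658 in shScrambled 1 to 3, again without overlap. The log2 fold change of -0.42 ± 0.05 (SE, n = 3 per group) leaves 74.6% of the control level. Because Pcolce2 fell further, the mix of the pair differed between the groups. Per kilobase of exon (CPM divided by exonic length), Pcolce2 made up 16.2%, 16.1% and 14.5% of the pair in shScrambled 1 to 3 and between 6.995% and 7.497% in the shGAA libraries, with a mean of 7.23% ± 0.252 (SD, n = 3). The pair together went from 193 ± 7.78 to 131 ± 3.61 CPM per kb (SD, n = 3 each).

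Bmp1 encodes the proteinase that these enhancers assist, and also the longer product mammalian tolloid. The gene was at 232, 231 and 232 CPM in shGAA 1 to 3 and at 223, 201 and 200.1 CPM in shScrambled 1 to 3. Its shGAA libraries were nearly identical, and the highest control, shScrambled 1, came close to them. This is a log2 fold change of 0.15 ± 0.05 (SE, n = 3 per group), a level 1.11 times that of the controls. The call was lost without shGAA 1 (0.15), shGAA 2 (0.16), shGAA 3 (0.15), shScrambled 2 (0.13) or shScrambled 3 (0.13), and kept without shScrambled 1 (0.21). Per kilobase, Pcolce stood at 698% ± 73.1 of Bmp1 in shScrambled and at 466% ± 15.6 in shGAA (SD, n = 3 each).

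Sequence near the start of the enhancer genes is shown because both genes were lower, with that of Serpinh1, which was not called, beside it. The RefSeq table on GRCm38.p6 gives 250 bases upstream of 1 annotated start per entry, and some of these windows reach into longer transcripts. Of the Pcolce window, 118 bases lie within the RefSeq span of the gene, and all 250 lie within its GENCODE M21 span, 83 of them in exons. Of the Pcolce2 window, 27 bases lie in a GENCODE exon. The runs below, 5′ to 3′ on the gene's strand, hold the part of each window upstream of the RefSeq span and outside GENCODE exons, which is 132 bases for Pcolce, 223 for Pcolce2 and 250 for Serpinh1. The run of Pcolce is intronic in its longest GENCODE transcripts. Capitals mark CANNTG, the E-box letters that MyoD-type and many other basic helix-loop-helix factors can bind. The runs are chr5:137611523-137611654 (minus strand) for Pcolce, chr9:95637378-95637600 (plus strand) for Pcolce2 and chr7:99353240-99353489 (minus strand) for Serpinh1.
Pcolce: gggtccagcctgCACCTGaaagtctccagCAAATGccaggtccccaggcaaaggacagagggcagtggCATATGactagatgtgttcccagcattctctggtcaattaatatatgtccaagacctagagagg
Pcolce2: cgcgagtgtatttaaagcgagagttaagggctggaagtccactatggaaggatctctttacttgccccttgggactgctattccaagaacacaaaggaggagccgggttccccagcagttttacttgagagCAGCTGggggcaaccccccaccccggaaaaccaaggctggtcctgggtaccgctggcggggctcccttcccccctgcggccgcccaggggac
Serpinh1: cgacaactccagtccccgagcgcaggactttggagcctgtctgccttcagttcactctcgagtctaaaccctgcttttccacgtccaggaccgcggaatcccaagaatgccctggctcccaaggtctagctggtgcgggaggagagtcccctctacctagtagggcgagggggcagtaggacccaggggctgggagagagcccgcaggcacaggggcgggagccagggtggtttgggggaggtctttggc

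CANNTG, whose reverse complement has the same letters, matched 3 times in the run of Pcolce, 1 time in that of Pcolce2 and 0 times in that of Serpinh1. The full window of Pcolce held 6 matches, of which the other 3 lie within the RefSeq span of the gene, so they are not upstream of it. Of 32851 RefSeq windows of the same length, 66.2% held at least 1 match and 0.274% held at least 6. The match in the run of Pcolce2 begins 119 bases upstream of the start used in the table. Among the other members in the sequence table, neither of them called, the Plod1 window lies wholly upstream of the gene and had 2 matches. That of P4ha2, which lies wholly within the GENCODE span of the gene, had 0. GGGCGG, searched on both strands, occurred in all 5 windows and in 32.7% of all windows. The 5 windows were 58.8% (Pcolce) to 70.0% (P4ha2) G or C, and the 32.7% was not matched for that. In the Pcolce window GGGCGG shares a base with a CANNTG match, in the part not printed. ACGTG, the core letters of the hypoxia element, was found on either strand in the windows of P4ha2 and Serpinh1, and in 16.6% of all windows. A match is only a run of letters and says nothing of a factor being bound. Bmp1, Lox, Loxl1, Loxl2 and Plod2 had no entry in the table.

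Lox makes a secreted amine oxidase whose propeptide is cut by Bmp1. Its level was 490.3, 435 and 477 CPM in shGAA 1 to 3 and 631, 749 and 703 CPM in shScrambled 1 to 3. No shGAA library reached any control, although both groups were wider than for the enhancers, with shGAA 2 and shScrambled 1 the lowest of their groups. The means were 467 ± 28.9 and 695 ± 59.2 CPM (SD, n = 3 each), with a log2 fold change of -0.57 ± 0.06 (SE), or 67.3% of the control level. Without shScrambled 1 the value was -0.64, and without shScrambled 2 it was -0.51.

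Loxl1, best known for elastic fibres, was at 170.5, 185 and 165 CPM in shGAA 1 to 3 and at 175, 174 and 188 CPM in shScrambled 1 to 3. The groups overlapped, and their log2 difference was -0.05 ± 0.06 (SE, n = 3 per group), or 0.00 under plain library-size scaling. Loxl2, a scavenger-receptor-domain lysyl oxidase that acts on basement membrane collagen, was at 248, 213.5 and 249 CPM in shGAA and at 234, 232 and 212 CPM in shScrambled. Here the log2 difference was 0.07 ± 0.06 (SE, n = 3 per group), and shGAA 2 lay below 2 of the 3 controls. Loxl2 shares 45.01% of its 50-base stretches with transcripts of other genes in GENCODE M21, most with Gm21451, not analysed here, so its count is uncertain. Plod2 shares 5.51%, and the other 8 members share 0% to 1.58%.

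Within the lysyl oxidase family the mix differed along with Lox. Per kilobase of exon, Lox made up 53.9%, 57.4% and 56.0% of the 5 family genes in shScrambled 1 to 3 and 47.7%, 45.2% and 47.2% in shGAA 1 to 3. Loxl1 took 20.9% ± 1.38 in shScrambled and 25.2% ± 2.29 in shGAA, and Loxl2 took 16.1% ± 1.42 and 20.9% ± 1.15 (SD, n = 3 each). These shares of Loxl1 and Loxl2 were larger while their own levels overlapped between the groups. The whole family summed to 260 ± 14.1 CPM per kb in shScrambled and to 209 ± 7.14 in shGAA.

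**Figure D2:**
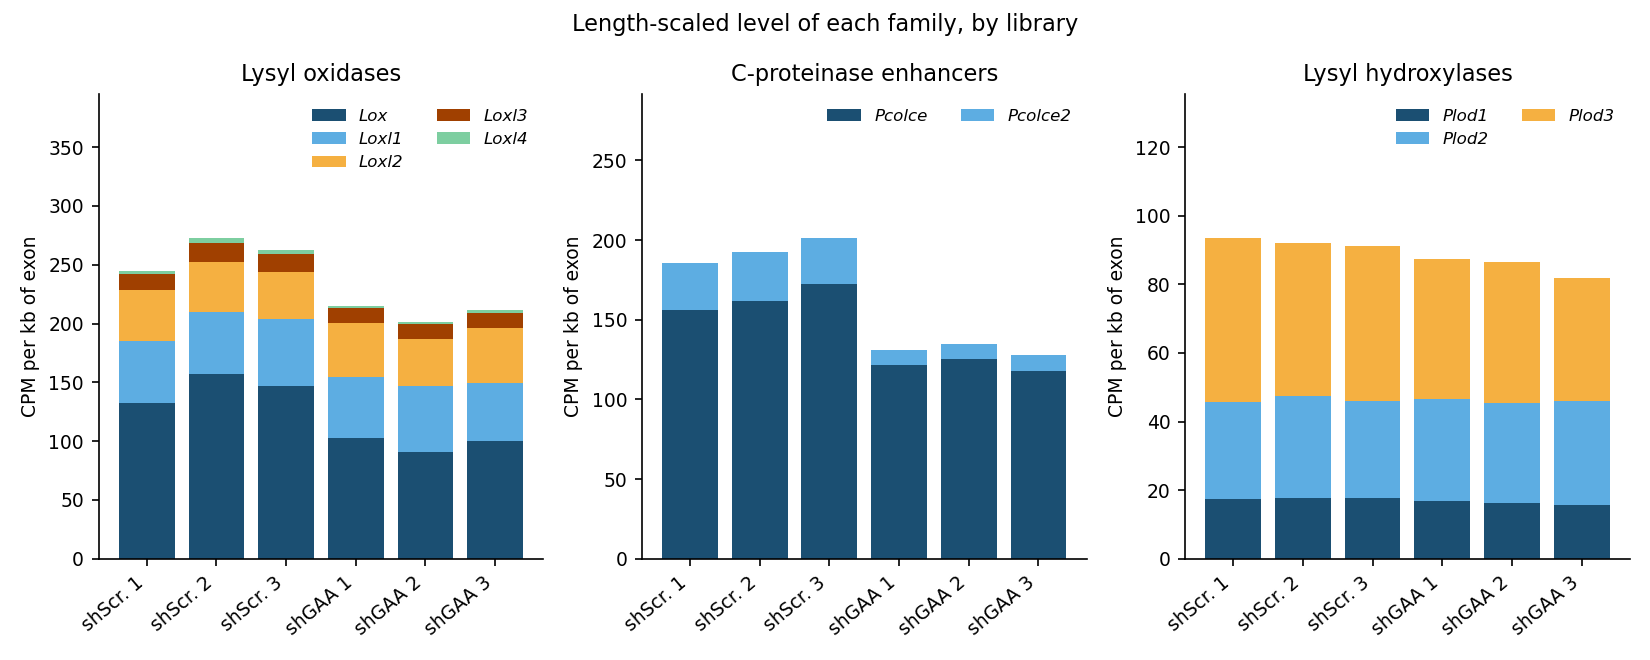
Stacked CPM per kilobase of exon (y axis, from 0) in each library for the lysyl oxidases, the procollagen C-proteinase enhancers and the lysyl hydroxylases. The Lox and Pcolce2 segments are shorter in all 3 shGAA libraries, and the Plod1 and Plod2 segments are about level.

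None of the 4 members that work inside the endoplasmic reticulum (Serpinh1, Plod2, Plod1 and P4ha2) was called, against 38.2% of all tested genes. Nothing is read from so small a count. Other enzymes there, such as Plod3 and Colgalt1, were called lower and P3h3 higher. Serpinh1, the most abundant gene of the set, was at 869, 845 and 814 CPM in shGAA 1 to 3 and at 863, 918 and 872 CPM in shScrambled 1 to 3. The groups overlapped, and their log2 difference was -0.07 ± 0.04 (SE, n = 3 per group). Plod2, the lysyl hydroxylase that acts on telopeptide lysines and so decides the kind of crosslink, was at 159, 159 and 163 CPM against 154, 161 and 151 CPM, a log2 fold change of 0.05 ± 0.05.

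Plod1, the lysyl hydroxylase of the helical part of the chain, was at 114, 109 and 107 CPM in shGAA 1 to 3 and at 117, 119.5 and 121 CPM in shScrambled 1 to 3. The groups did not overlap, but the gap was small, and the log2 fold change of -0.11 ± 0.05 (SE, n = 3 per group) was not called. P4ha2, a catalytic subunit of prolyl 4-hydroxylase, was at 119, 115 and 114 CPM in shGAA and at 90.7, 114 and 106 CPM in shScrambled. Its log2 fold change of 0.17 ± 0.07 was not called and leaned on the low value of shScrambled 1, since it was 0.08 without that library. It was called without shScrambled 2 (0.24), under plain library-size scaling (0.21) and when the low-count filter was dropped (0.17).

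**Figure D3:**
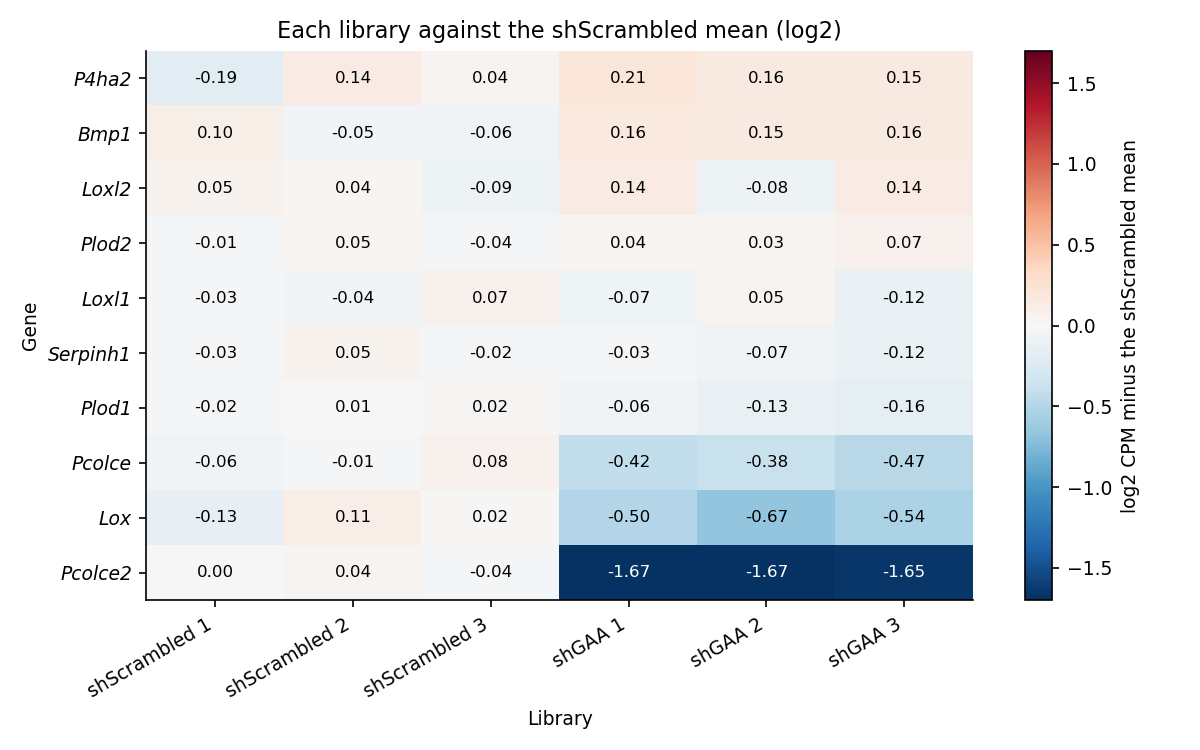
Log2 CPM of each library minus the mean of the 3 shScrambled libraries, for the 10 genes (rows) and 6 libraries (columns); blue is lower and red higher. Pcolce2 is at -1.67, -1.67 and -1.65 in shGAA 1 to 3, Lox at -0.50 to -0.67, and P4ha2 varies most among controls, from -0.19 to 0.14.

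The 10 genes differed in how even they were between these libraries, and a range over 3 libraries is itself uncertain. For Plod1 in shScrambled the SD was 1.55% of the mean, below the 2.98% that counting noise alone would give. The smallest ranges are therefore not read as a trait of the gene. Within shGAA the distance from the lowest to the highest library ran from 0.01 (Bmp1) to 0.22 (Loxl2) on the log2 CPM scale, and within shScrambled from 0.04 (Plod1) to 0.33 (P4ha2). The library shScrambled 1 lay 0.28 below the mean of shScrambled 2 and 3 for P4ha2, 0.20 below for Lox and 0.16 above for Bmp1. For Pcolce2 it lay 0.01 below.

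Ranked by level per kilobase in shScrambled, Serpinh1 led with 362 ± 12.1 CPM per kb (SD, n = 3), followed by Pcolce with 163 ± 8.25 and Lox with 145 ± 12.4. Pcolce and Lox overlapped in the controls. Loxl1 followed at 54.3 ± 2.40, Loxl2 at 41.8 ± 2.22, Pcolce2 at 30.1 ± 0.869, Plod2 at 28.8 ± 0.946, Bmp1 at 23.5 ± 1.49, Plod1 at 17.6 ± 0.273 and P4ha2 at 16.6 ± 1.88. Pcolce2 and Plod2 overlapped there, as did Plod1 and P4ha2. In shGAA the order changed in 2 places. Pcolce2 dropped to the last position at 9.48 ± 0.0796 CPM per kb, and P4ha2 at 18.6 ± 0.416 stood above Plod1 at 16.3 ± 0.575 without overlap.

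The genes are spread over 7 chromosomes. On chromosome 9 lie Loxl1 (58287738 to 58313186), Plod2 (92542223 to 92608428) and Pcolce2 (95637601 to 95698096), in GENCODE M21 on GRCm38. Plod2 and Pcolce2 are 3.03 Mb apart, and only Pcolce2 was called lower. On chromosome 14, Loxl2 (69609068 to 69695834) and Bmp1 (70474558 to 70520234) are 0.779 Mb apart. Lox lies on chromosome 18 at 52516067 to 52529867 and Pcolce on chromosome 5 at 137605103 to 137613784. Serpinh1 is on chromosome 7 at 99345376 to 99353239, Plod1 on chromosome 4 at 147909753 to 147936767 and P4ha2 on chromosome 11 at 54100095 to 54131665.

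Beyond the 10 genes, 30 further genes of collagen modification, export and processing were examined, of which 23 were tested. Of these, 10 fell, 2 rose and 11 were not called, with a median log2 fold change of -0.13. Among all tested genes 19.7% were called lower and 18.5% higher. This list and those below were chosen with earlier results of these data known, so their counts, fold changes and p-values are a description. Adamts14, which cuts the N-terminal propeptide, fell from 116 to 74.9 CPM, by 0.63 ± 0.06 in log2 units (edgeR adjusted p = 2.85e-07), while Adamts2, which does the same, was at -0.15 ± 0.07 (adjusted p = 0.112). Tgm2, a transglutaminase that forms other protein crosslinks, fell by 0.84 ± 0.07 (adjusted p = 2.48e-07) and overlaps genes on the opposite strand over 21.8% of its exons. Loxl4, the scarcest lysyl oxidase here, fell by 0.90 ± 0.15 from 16.1 CPM (adjusted p = 0.000126), and Colgalt1, which adds galactose to hydroxylysine, fell by 0.27 ± 0.05 (adjusted p = 0.000744). The rises were those of Sec23a, a coat protein of export vesicles (0.33 ± 0.05, adjusted p = 8.73e-05), and P3h3, of the prolyl 3-hydroxylase family (0.43 ± 0.13, adjusted p = 0.0130).

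How firm these 10 falls were varied. Adamts14, Tgm2, Loxl4, Colgalt1 and Plod3 were called lower in all 12 alternative settings. The other 5 (P4ha1, P3h4, Fkbp14, Loxl3 and Mia3, named after their values were seen) were called in 4 to 7 of the 12. The count of falls was 6 without shGAA 1, shGAA 3 or shScrambled 2, and 5 without shGAA 2 or shScrambled 3. P3h3 lost its call without shGAA 2 (0.37) and without shScrambled 2 (0.30). P4hb, the subunit shared by all prolyl 4-hydroxylases, was at -0.07 ± 0.04 (adjusted p = 0.200).

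**Figure D4:**
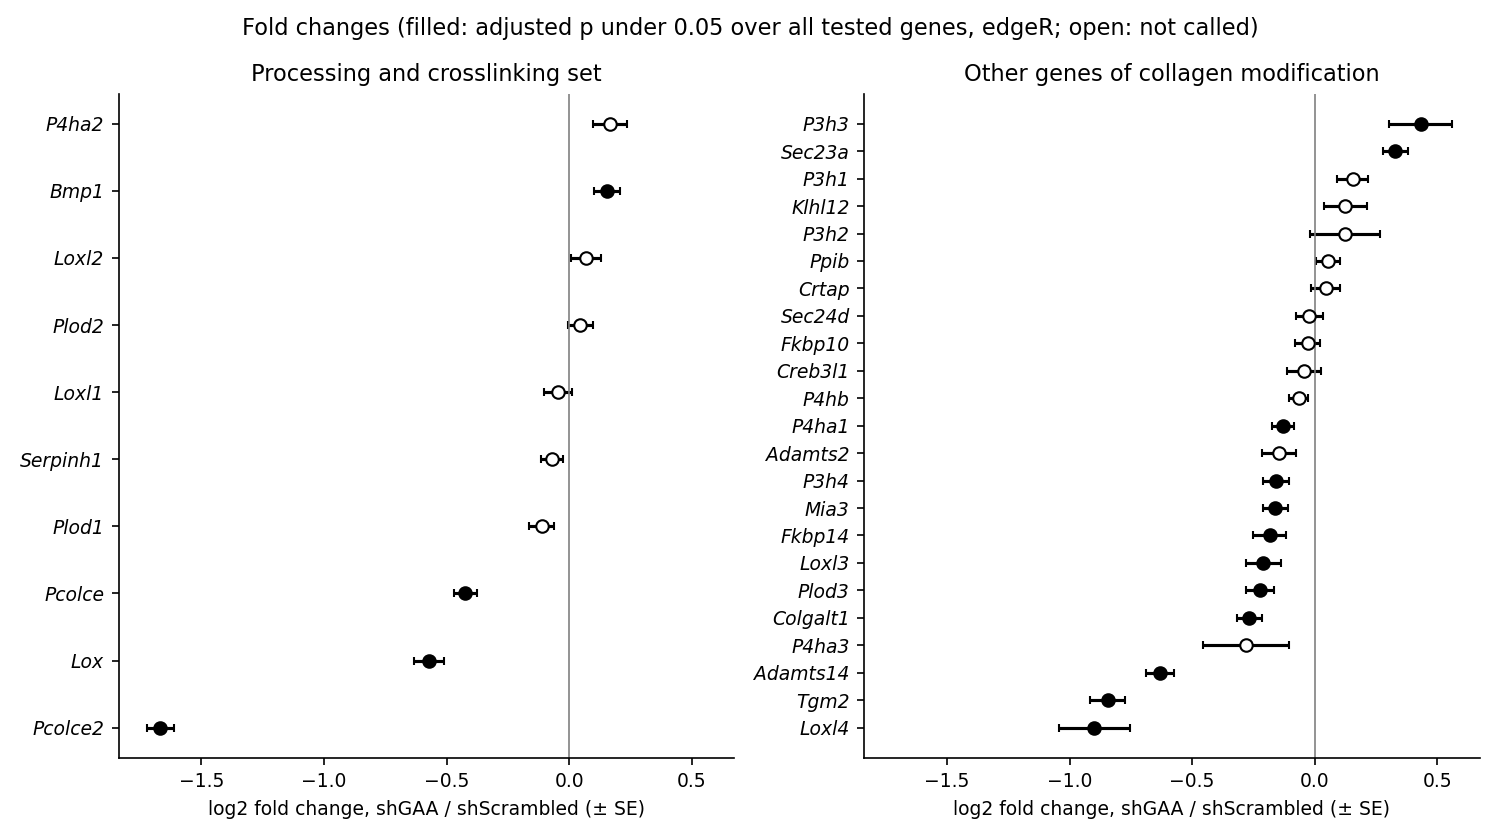
Log2 fold change of shGAA over shScrambled (x axis) ± SE for the 10 genes of the set (left) and the 23 other tested genes of collagen modification, export and processing (right). Filled points are called and open points are not. Pcolce2 lies at -1.67, and no gene on the right lies below -0.90.

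The fibrillar chains, on which these enzymes act, went in both directions. Of 9 tested genes among the fibrillar collagens and elastin, 2 rose, 3 fell and 4 were not called, with a median of 0.03. Among all tested genes 18.5% were called higher and 19.7% lower. Col3a1, the most abundant, rose by 0.31 ± 0.04, from 2759 to 3413 CPM (edgeR adjusted p = 7.46e-06), and Col5a2 rose by 0.25 ± 0.04 (adjusted p = 0.000163). Both chains of type I collagen fell, Col1a1 by 1.10 ± 0.10 from 43.1 CPM (adjusted p = 1.96e-07) and Col1a2 by 0.47 ± 0.05 from 906 CPM (adjusted p = 2.29e-06). Col5a3 fell by 0.89 ± 0.08 (adjusted p = 8.71e-06). The summed level of the list, in which Col3a1 weighs most, was higher in shGAA, at 5566 to 5651 CPM against 5203 to 5265 CPM. That of the 10 enzymes and cofactors was lower, with the called falls in Pcolce, Pcolce2 and Lox. Neither sum describes the typical gene, since the median log2 fold changes were 0.03 and -0.06.

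Genes of fibril-binding proteins also split. Of 15 tested, 5 rose, 4 fell and 6 were not called, with a median of -0.04, beside 18.5% called higher and 19.7% lower among all tested genes. Postn, a matricellular protein that binds Bmp1 and collagen, rose by 2.54 ± 0.11 (edgeR adjusted p = 4.67e-08), and Thbs1 rose by 0.57 ± 0.07 (adjusted p = 0.000159). The microfibril gene Fbn1 rose by 0.46 ± 0.05 (adjusted p = 5.23e-06) and shares 19.7% of its 50-base stretches with other genes. The small proteoglycan genes moved apart, with Dcn higher by 0.24 ± 0.05 (adjusted p = 0.00111) and Bgn lower by 0.39 ± 0.07 (adjusted p = 0.000732). Ltbp1, which tethers latent TGF-beta, fell by 0.78 ± 0.06 (adjusted p = 3.01e-08), Fbln1 by 0.43 ± 0.08 (adjusted p = 0.000507) and Sparc by 0.13 ± 0.04 (adjusted p = 0.0122). Sparc lost its call without shGAA 2 (-0.11) and under plain library-size scaling (-0.08).

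Markers of other cell types that make collagen were examined beside the set. The 9 fibroblast markers summed to 1737 to 1910 CPM in shGAA and 2350 to 2577 CPM in shScrambled, nearly all from S100a4 and Pdpn, and Thy1 and Tcf21 were at 0 counts in every library. Of the 6 tested, 2 (S100a4 and Pdpn) were lower and 0 higher by edgeR, beside 19.7% and 18.5% of all tested genes. The other 4 lay above 0 without being called, and the median log2 fold change of the 6 was 0.20. The 8 osteoblast and chondrocyte markers summed to 134 to 142 CPM and 161 to 193 CPM, from Runx2 and Sox9, with Ibsp at 0 counts. Leukocyte markers summed to at most 3.60 CPM and endothelial markers to at most 5.44 CPM in any library. The part of these markers in the lower levels of Pcolce, Pcolce2 and Lox was not tested.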

How the data were processed

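The authors deposited raw read counts per gene symbol, 1 column per library. The submitters' processing notes name mm10, FastQC, HISAT2 2.1.0, Subread and edgeR. The annotation, strand setting and treatment of multi-mapping reads are, in the sources used here, not given, so reads of overlapping or near-identical genes can have been assigned to another gene or left out.

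Genes entered the fit when filterByExpr kept them (defaults, group given) and libraries scaled by TMM (factors 0.979 to 1.02). edgeR 4.0.16 in R 4.3.3 fitted a robust quasi-likelihood model with the group as its only term, and p-values were adjusted by Benjamini-Hochberg over 11801 genes (threshold 0.05). The SE is the size of the log2 fold change over the root of F. CPM used TMM-scaled totals. Exonic lengths, overlaps and shared 50-base stretches came from GENCODE M21. The exonic length joins the exons of all transcripts of a gene, whether or not these cells make them. Ratios, shares and rankings between genes per kilobase are therefore approximate. The code was tested on simulated counts in which 200 genes were changed, and 11.1% of the calls fell on unchanged genes. This share depends on how many genes change, and 4512 genes were called in the data, so it does not carry over as a rate. Calls with an adjusted p close to the threshold may be less certain than it states. Alternatives were library-size scaling, DESeq2 1.42.0, limma-voom (limma 3.58.1), no low-count filter, a non-robust fit, a replicate block and leaving out each library.

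The 10 genes and all lists were chosen with earlier results of these data known. Named were all 10 genes and, from each further list, up to 4 genes called higher and up to 4 called lower, by smallest adjusted p. Adamts2, P4hb, Plod3 and the cell type markers given by name fall outside this rule and were named after their values were seen.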

Additional observations from a re-analysis of the deposited data

How the results depend on the processing

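Pcolce, Pcolce2 and Lox were called lower in all 12 alternative settings, with log2 fold changes of -0.46 to -0.38, -1.69 to -1.62 and -0.64 to -0.51. The count of the 10 genes called lower was therefore 3 throughout. The count called higher was 2 under plain library-size scaling and when the low-count filter was dropped, in both cases Bmp1 and P4ha2. With a library left out it was 0 to 1, namely Bmp1 without shScrambled 1 and P4ha2 without shScrambled 2. Bmp1 kept its call in 7 of 12 settings. Among the other genes of collagen modification, falls numbered 5 under plain library-size scaling, 6 in DESeq2 and 5 to 10 with a library left out, and rises 1 to 3 with a library left out. The cause of these shifts was not tested, and leaving a library out also lowers the number of libraries. Counts for fibrillar chains (2 higher and 3 lower) were the same with each library left out, and those for fibril-binding genes were 4 to 5 higher and 3 to 4 lower. Same-numbered libraries did not deviate together (correlations of -0.04, 0.06 and -0.01 over genes). With 3 libraries per group this cannot show whether they were prepared in numbered pairs. With the replicate block, 3 of the 10 genes were lower and 1 higher, and calls over all genes numbered 2037 higher and 2197 lower against 2182 and 2330. Library-size scaling moved the median gene by 0.05. The SE of the 10 genes was 0.04 to 0.07 and reflects the scatter of these libraries. What difference between separate cultures could be resolved cannot be told from it, since the labels do not say whether the libraries are separate cultures.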
